A study of Mus musculus with 12 samples.

Results

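The 6 genes followed here through the ORFtag screens in mouse embryonic stem (mES) cells were Crtc1, Crtc2 and Crtc3, which encode the CREB-regulated transcription coactivators, and Mrtfa, Mrtfb and Myocd, which encode the myocardin family. They were taken by gene name, 6 of the 20409 genes in each of the 3 screen tables, and counted by gene identifier. Neither family binds DNA on its own in its best-known role. CRTC proteins join the transcription factor CREB, and MRTF proteins and myocardin join serum response factor (SRF). Both families carry signals into the nucleus. Phosphorylation by salt-inducible kinases (SIKs) holds CRTCs in the cytoplasm, and the phosphatase calcineurin releases them. Monomeric actin, bound through so-called RPEL motifs near the N-terminus, holds MRTFs in the cytoplasm until actin assembles into filaments. Myocardin is mostly nuclear and is known from heart and smooth muscle. In both families the segment that activates transcription lies in the C-terminal part of the protein.

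ORFtag uses a retroviral cassette with a constitutive PGK promoter, neomycin resistance, a tag and, after it, a splice donor. Where it lands ahead of an exon in the same direction, the tag can be spliced onto the rest of the endogenous protein. All 12 libraries came from diploid wild-type mES cells of 1 origin (a formerly haploid line), each screen in 1 clonal reporter line transduced with a mix of 3 cassettes, one for each reading frame. In the activator screen TetR, a bacterial DNA-binding domain, served as tag, and the reporter (7xTetO-pMYLPF-Puro-IRES-GFP) sat at an expression-stable site on chromosome 15, with a promoter that is inactive by itself. In the repressor screen the same tag was used with the reporter pEF1-BFP-7xTetO-pPGK-Puro-IRES-GFP, at that same site. In the PTGR (post-transcriptional gene regulation) screen the tag was λN, which binds BoxB hairpins in RNA, and the reporter (Puro-IRES-GFP-10xBoxB) was integrated at random. Cells that gained GFP (activator) or lost it (repressor) were sorted. For PTGR, cells with low GFP were sorted repeatedly, with expansion between sorts, from a line that also carried an inducible Cre recombinase. Hydroxytamoxifen then switched on Cre, which cut out the BoxB sites, and a last sort kept cells with high GFP. There were 2 sorted libraries per screen, and 2 unsorted ones per screen were made from the drug-selected cells before sorting. Each pair is described by the study as biological replicates.

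A value here is a number of distinct insertion positions on the sense strand, each assigned to the next downstream exon (not a first exon) of a protein-coding gene within 200 kb. The sorted libraries held from 14705 to 60980 such insertions and the unsorted ones from 54088 to 233799. Shares are given per 10000 insertions of a library. The background is the sum of the 6 unsorted libraries, with 1022126 insertions. A count of 0 allows up to 3 counts, and such limits and the Wilson intervals below cover counting error only.

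Acceptor sites to which the tag would be spliced are shown first, because they set which part of the coactivator could be fused. The windows are genomic sequence of GRCm38 (mm10), 20 intron bases and 10 exon bases read in the direction of the gene, with the last 2 intron bases in capitals. The CRTC windows are those ahead of exon 2, at chr8:70409002-70409031 (minus strand), chr3:90257097-90257126 (plus strand) and chr7:80677435-80677464 (minus strand). The myocardin-family windows are those with the most sorted insertions, ahead of Mrtfa exon 2 at chr15:81156784-81156813 (minus strand), Mrtfb exon 4 at chr16:13378244-13378273 (plus strand) and Myocd exon 2 at chr11:65233175-65233204 (minus strand). All 6 end in AG, the usual end of an intron. From Mrtfa exon 2, a stop codon lies in frame ahead of the start codon in the reference transcript. A fusion with the protein is thus not predicted from that site.
Crtc1 exon 2: tggtggctttgcttttccAGcttcagctgc
Crtc2 exon 2: atttctctcttttatctcAGttacaggccc
Crtc3 exon 2: cgacctccttctgtttccAGgttcagtttc
Mrtfa exon 2: tttttctgtgtgtgttttAGcaactgtgtg
Mrtfb exon 4: caactctttcctttctacAGtgctccagct
Myocd exon 2: cttgtgcttccttttccaAGtcttacagtt

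In the activator screen, insertions at Crtc2, Crtc3, Mrtfa, Mrtfb and Myocd were enriched in the GFP-gaining cells, between 24.2-fold (Mrtfa) and 143-fold (Crtc2) over the background share. Crtc1 had too few insertions to be tested. The 6 genes together took 79 of 17397 insertions in sorted replicate 1, or 45.4 per 10000 (95% Wilson interval 36.5 to 56.6), and 111 of 14705 in replicate 2, or 75.5 per 10000 (62.7 to 90.8). In the unsorted libraries they took from 0.912 to 2.03 per 10000. The summed sorted libraries were set against the background by Fisher's exact test (one-sided), with Benjamini-Hochberg adjustment over the 2842 genes that had 3 or more sorted insertions. A gene was called where the log2 odds ratio was 1 or more and the adjusted p was under 0.001, and 5 of the 6 members were called. Over all genes tested, 4.64% were called. The median log2 odds ratio was 5.58 over the 5 members tested and -0.14 over all genes tested. The members were chosen with earlier results of these data known. The share of members called and their median are thus a description and add no separate support. With insertions within 2 kb of the exon alone, 2 of 4 members tested were called, Crtc3 and Mrtfb, where 44.8% of the 181 genes tested were called.

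**Figure D1:**
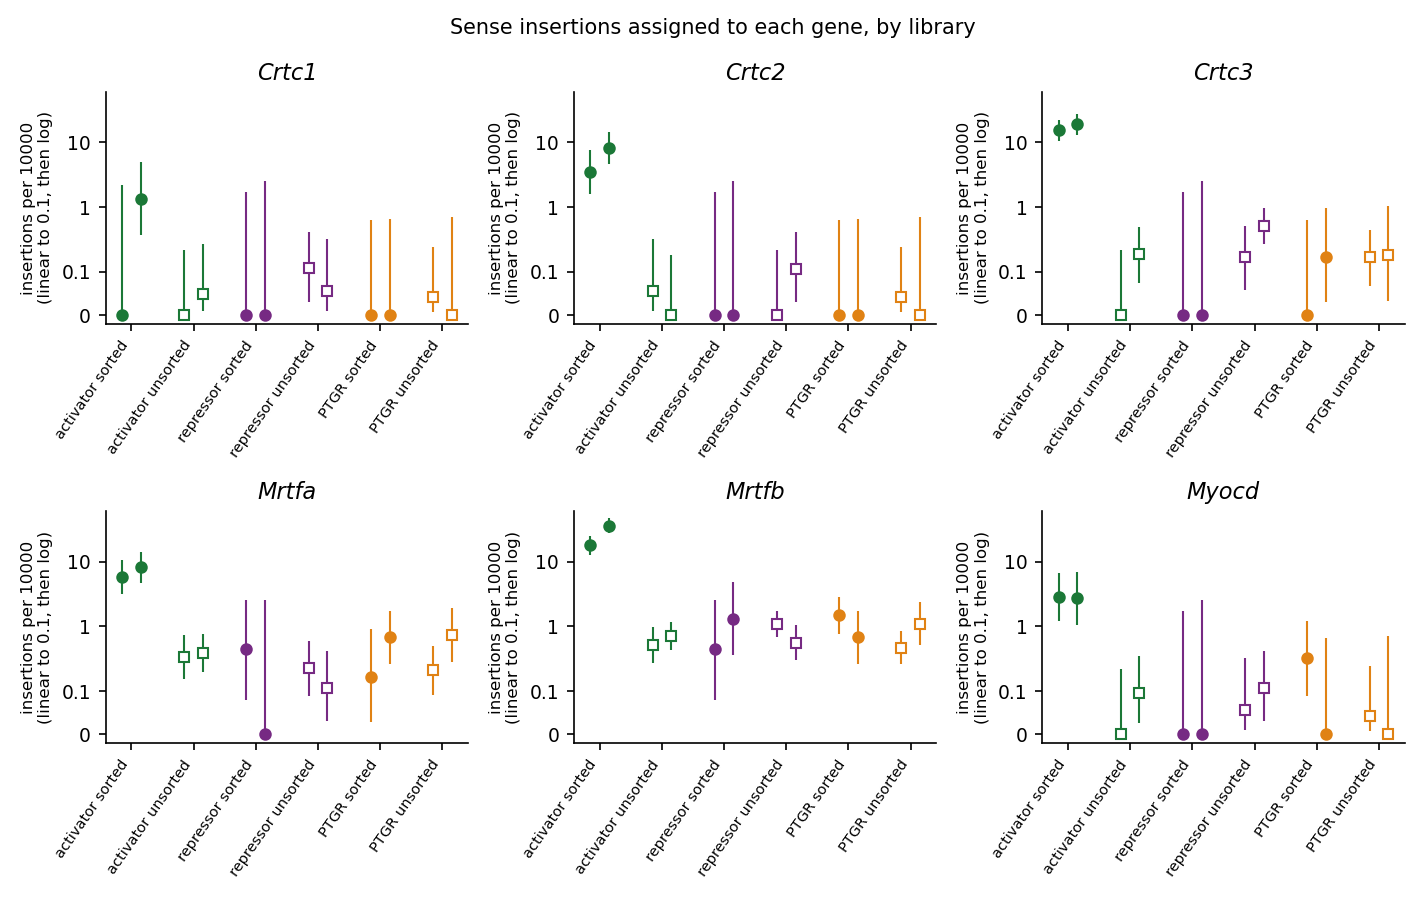
Sense insertions per 10000 insertions of each library (vertical axis, linear from 0 to 0.1 and logarithmic above) for the 6 genes, with the 12 libraries grouped by screen and sorting along the horizontal axis. Filled circles are sorted libraries, open squares unsorted ones, and bars are 95% Wilson intervals. For Crtc2, Crtc3, Mrtfa, Mrtfb and Myocd, both activator sorted libraries lie above the other 10 libraries. The share of all genes with this pattern was not counted.

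Crtc3 (ENSMUSG00000030527, chromosome 7, 80586627 to 80688877, minus strand) had 27 insertions in sorted replicate 1 and 28 in replicate 2, or 15.5 and 19.0 per 10000. The activator unsorted libraries held 0 and 4, the repressor ones 3 and 9, and the PTGR ones 4 and 1, so that the 6 unsorted shares ran from 0 through a median of 0.179 to 0.509 per 10000. The 2 sorted libraries were close to each other and far above every unsorted library. The log2 odds ratio was 6.38 ± 0.37 (SE; exact 95% interval 5.64 to 7.18), with an adjusted p of 3.85e-64 by Fisher's exact test. It ranked 11 of the 132 called genes by odds ratio.

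Crtc2 (ENSMUSG00000027936, chromosome 3, 90254163 to 90264125, plus strand), the family member best known from liver glucose production, had 6 and 12 sorted insertions, or 3.45 and 8.16 per 10000. Only 4 insertions were found over all 6 unsorted libraries: 1 in activator replicate 1, 2 in repressor replicate 2 and 1 in PTGR replicate 1. The other 3 unsorted libraries held none, and the highest unsorted share, 0.113 per 10000, was far below either sorted one. Its log2 odds ratio, 7.16 ± 0.80 (exact 95% interval 5.56 to 9.19), was the highest of the 6 genes and rank 5 of 132, with an adjusted p of 1.35e-22 by Fisher's exact test. It was 6.46 without activator sorted replicate 2 and 7.89 without repressor unsorted replicate 2. Crtc2 is a small target, and 25.1% of all genes had fewer background insertions.

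Crtc1 (ENSMUSG00000003575, chromosome 8, 70382355 to 70439579, minus strand), the member known from the brain, had 0 insertions in sorted replicate 1 and 2 in replicate 2, or 1.36 per 10000. Its 5 background insertions were spread over 4 libraries, and none of the unsorted shares was above 0.115 per 10000. With 2 sorted insertions it was below the minimum for the test. Its log2 odds ratio was 3.67, with an exact 95% interval from 0.28 to 6.28. The 0 in replicate 1 allows up to 1.72 per 10000, so the replicates cannot be told apart at this depth.

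Mrtfb (ENSMUSG00000009569, chromosome 16, 13256481 to 13417529, plus strand), a ubiquitous SRF coactivator, had the most insertions of the 6 genes, 31 and 53 in the sorted replicates, or 17.8 and 36.0 per 10000. The unsorted libraries held 9, 15, 19, 10, 11 and 6, in the order activator, repressor, PTGR, with shares from 0.47 through a median of 0.644 to 1.11 per 10000. The 2 sorted replicates differed from each other more than for Crtc3, but the lower was still above every unsorted library. The log2 odds ratio was 5.26 ± 0.23 (exact 95% interval 4.78 to 5.74), with an adjusted p of 2.91e-82 by Fisher's exact test, the smallest of the 6.

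Mrtfa (ENSMUSG00000042292, chromosome 15, 81012281 to 81190757, minus strand), the paralogue that is the classical actin-regulated SRF coactivator, had 10 and 12 sorted insertions, or 5.75 and 8.16 per 10000. The unsorted libraries held 6, 8, 4, 2, 5 and 4, with shares from 0.113 through a median of 0.286 to 0.740 per 10000. Both sorted shares were above all unsorted ones. The log2 odds ratio of 4.60 ± 0.41 (exact 95% interval 3.73 to 5.45) was the lowest of the 5 genes called, with an adjusted p of 1.09e-18 by Fisher's exact test. The intervals of Mrtfa and of Crtc2 and Crtc3 did not overlap, and the difference itself was not tested.

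Myocd (ENSMUSG00000020542, chromosome 11, 65176561 to 65269989, minus strand) had 5 and 4 sorted insertions, or 2.87 and 2.72 per 10000. The unsorted libraries held 0 and 2 (activator), 1 and 2 (repressor), and 1 and 0 (PTGR), and the highest share among them was 0.113 per 10000. The 2 sorted values were close and above all unsorted ones. The log2 odds ratio was 5.58 ± 0.76 (exact 95% interval 3.92 to 7.35), with an adjusted p of 2.82e-09 by Fisher's exact test. It had the fewest sorted insertions of the 5 members called, and with a minimum of 10 sorted insertions it was not tested.

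The Fisher test sums the libraries, so the same contrast was also set against the spread between replicates, 2 sorted against the 2 unsorted libraries of the activator screen. In edgeR's quasi-likelihood test with Benjamini-Hochberg adjustment, 5 of the 6 members were higher in the sorted libraries at an adjusted p below 0.05, where 1.45% of the 8000 genes tested were called higher and 1.46% in either direction. The log2 fold changes were 7.16 ± 0.52 (SE) for Crtc3, 5.34 ± 0.40 for Mrtfb and 4.14 ± 0.56 for Mrtfa, with adjusted p of 4.01e-14, 9.62e-14 and 6.91e-07 in edgeR. The value for Mrtfb was 4.70 without sorted replicate 2, 5.95 without sorted replicate 1 and 5.94 without unsorted replicate 2. That for Crtc3 was 6.55 without unsorted replicate 1, and without unsorted replicate 2 no fold is given, since its only unsorted insertions were in that library. For Crtc2 and Myocd, which had 1 and 2 insertions in these unsorted libraries, the adjusted p was 2.50e-07 and 2.82e-04 in edgeR. Crtc2, Crtc3 and Myocd each had under 10 insertions in these unsorted libraries, and reached the minimum of 10 for the test only through their sorted counts. Mrtfa and Mrtfb, with 14 and 24 unsorted insertions, reached it without them. The median edgeR log2 fold change was 5.41 over the 5 members and -0.73 over all genes. Myocd was not called with a replicate block (adjusted p 0.0543 in edgeR), and without sorted replicate 1 or unsorted replicate 2 it fell below the minimum of 10 insertions, as both Crtc2 and Myocd did without sorted replicate 2.

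**Figure D2:**
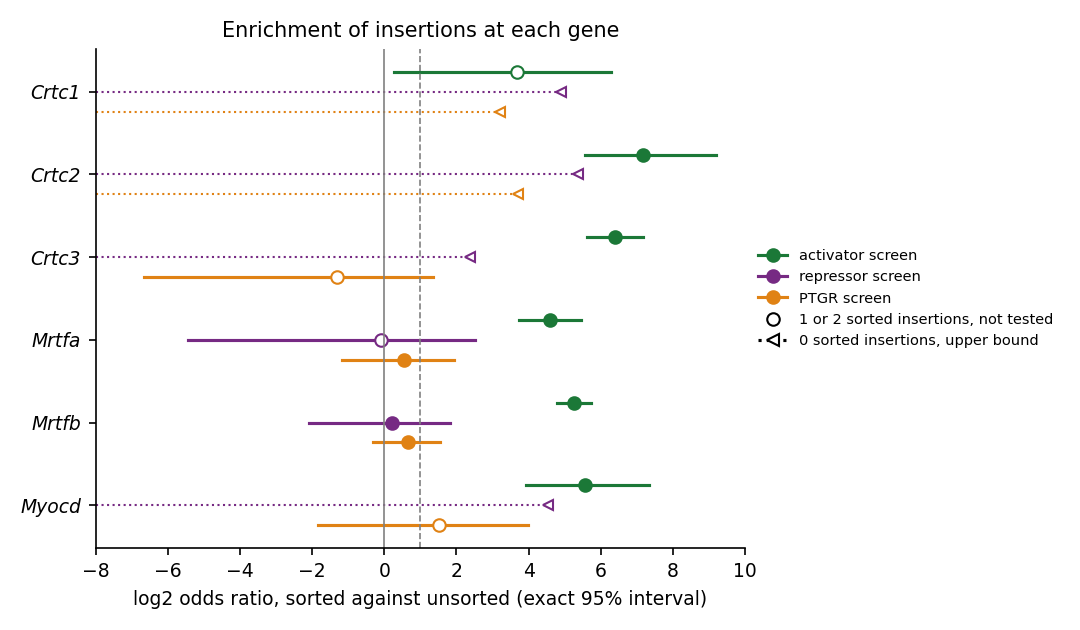
Log2 odds ratio of sorted against background insertions (horizontal axis) for each gene, in the activator (green), repressor (purple) and PTGR (orange) screens, with exact 95% intervals. Open circles have 1 or 2 sorted insertions and were not tested, open triangles are upper bounds where no sorted insertion was found, and the dashed line is the threshold of 1. The 5 filled green points run from 4.60 to 7.16, and the 3 filled points of the other screens from 0.23 to 0.67.

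The repressor and PTGR screens showed no such enrichment. In the repressor screen, Crtc1, Crtc2, Crtc3 and Myocd had 0 insertions in either sorted library, Mrtfa had 1 and 0, and Mrtfb had 1 and 2. A 0 over both sorted libraries allows a share of up to 0.801 per 10000, which is above the mean unsorted share of each of these 4 genes, so a loss could not have been seen. Mrtfb, the one member with enough insertions, had a log2 odds ratio of 0.23 (exact 95% interval -2.09 to 1.83). By Fisher's exact test 0 of the 6 members were called, with none at an unadjusted p below 0.05, while 8.18% of all genes tested were called. In edgeR 0 of 2 members tested were called, with none at an unadjusted p below 0.05, against 3.73% of all genes (2.58% higher in sorted cells), and DESeq2 also called 0.

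In the PTGR screen, where the same proteins would be tethered to RNA, Mrtfb had 9 and 4 sorted insertions, or 1.48 and 0.683 per 10000. The second value lies within the unsorted range and the first above it. Mrtfa had 1 and 4, also within its unsorted range, Myocd 2 and 0, Crtc3 0 and 1, and Crtc1 and Crtc2 0. The log2 odds ratios were 0.67 (exact 95% interval -0.31 to 1.53) for Mrtfb and 0.56 (-1.17 to 1.95) for Mrtfa. Neither was called by Fisher's exact test, where 0.666% of all genes were called, and neither had an unadjusted p below 0.05. In edgeR 0 of 2 members tested were called and none had an unadjusted p below 0.05, against 0.330% of all genes, and DESeq2 also called 0. Library replicate 2 of the PTGR sorted pair lists some positions more than once, and these were counted once.

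Whether the change on sorting itself differed between screens was tested in edgeR over all 12 libraries. The 2 repressor sorted libraries shared 18.2% and 26.0% of their positions with each other, and the fit does not account for this. Crtc3 and Mrtfb differed between the activator and the repressor screen, 2 of 5 members tested, where 0.570% of the 12809 genes tested were called higher in the activator screen. The adjusted p was 2.02e-07 for Crtc3 and 5.69e-08 for Mrtfb in edgeR, and the difference for Mrtfb was 5.12 ± 0.81 on the log2 scale. The same 2 genes differed between the activator and the PTGR screen (0.586% of genes called higher in the activator screen and 0.710% in either direction), with adjusted p of 1.49e-04 for Crtc3 and 1.45e-06 for Mrtfb and a difference of 4.28 ± 0.73 for Mrtfb in edgeR. No fold is given for Crtc3, which had 0 and 1 sorted insertions in the screens compared. For Crtc2, Mrtfa and Myocd the adjusted p lay between 0.102 and 0.889 in edgeR, and a difference was not detectable at this depth. Without activator sorted replicate 2 the differences for Mrtfb were 4.46 and 3.62. They were 5.79 without repressor sorted replicate 2, and 5.02 and 5.07 without PTGR sorted replicate 1 and unsorted replicate 1, and the calls held in each. Without PTGR unsorted replicate 1, the deepest unsorted library, Crtc3 no longer differed from the PTGR screen (adjusted p 0.373 in edgeR). DESeq2 called Crtc2 and Mrtfa as well in that comparison.

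The cassette can land in either direction, and only sense insertions can place the tag on the protein. In the activator sorted libraries 190 of the 191 insertions at the 6 genes were in sense, or 99.5% (95% Wilson interval 97.1 to 99.9). Among all genes in the same libraries the share was 51.9%, and at the 6 genes in the 6 unsorted libraries 52.3% (46.2 to 58.3). Genes were called on the sense insertions of these same sorted libraries. A high sense share thus largely follows from the calls and adds no separate support. The share at the other called genes was not computed. The single reversed insertion was at Crtc2, in replicate 1. Mrtfb had 84 sense and 0 reversed insertions in the sorted cells, against 70 and 59 in the background. Crtc3 had 55 and 0, against 21 and 16. In the PTGR sorted libraries the 6 genes had 21 sense and 22 reversed insertions, and Crtc3 had 1 and 6.

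**Figure D3:**
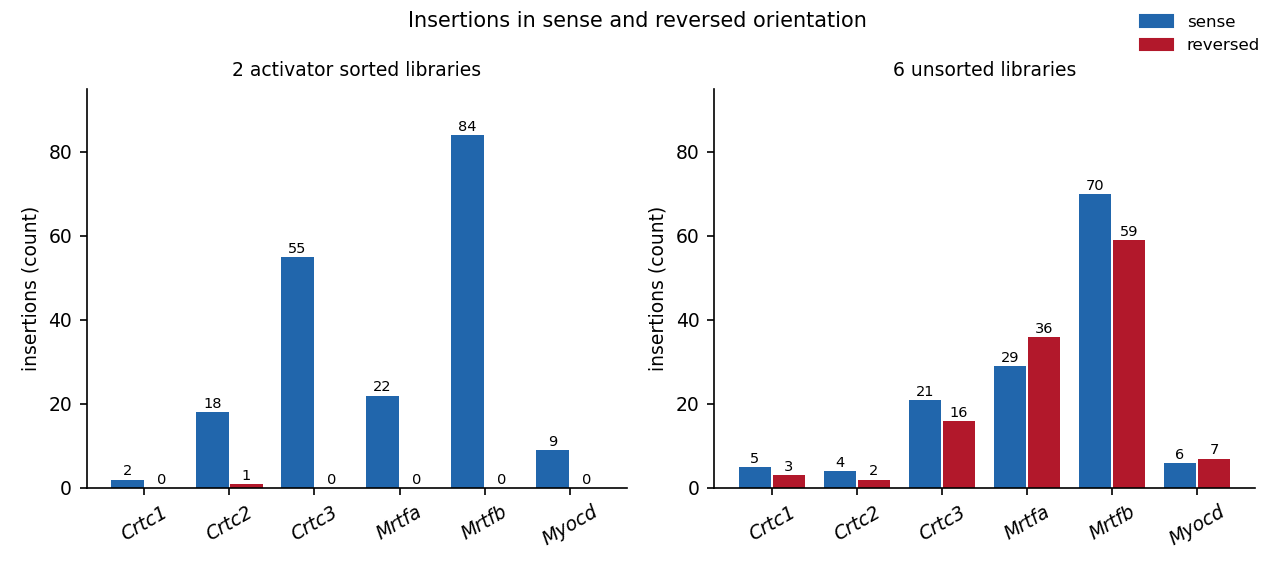
Numbers of insertions (vertical axis) at each gene in sense (blue) and reversed (red) orientation, in the 2 activator sorted libraries (left) and the 6 unsorted libraries (right). The sorted libraries hold 190 sense and 1 reversed insertion, the unsorted ones 135 and 123.

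When reversed insertions were tested in place of sense ones, no member reached 3 reversed insertions in the activator or repressor sorted libraries. In the PTGR screen 4 members were tested by Fisher's exact test and 0 were called, with 1, Crtc3, at an unadjusted p of 0.0219 and an adjusted p of 0.321. Over all genes, the share called for reversed insertions was 3.14% in activator, 5.61% in repressor and 0.500% in PTGR sorted cells.

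Most sorted insertions were at exact positions of their own, though some lay close together. With positions within 10 bp counted once, the activator sorted counts were 16 at Crtc2, 48 at Crtc3, 20 at Mrtfa, 74 at Mrtfb and 8 at Myocd. The background counts were 4, 21, 29, 68 and 6, and all of these genes were still called by Fisher's exact test. Of the 186 distinct positions at the 6 genes in the activator sorted libraries, 4 were found in both replicates, 3 of them at Mrtfb and 1 at Crtc3. Of the 186, 12 were also seen in an activator unsorted library, 9 of them at Mrtfb. Over all positions, 1.76% of those in sorted replicate 1 and 2.26% of those in replicate 2 were in the other replicate, and 4.96% and 19.5% were in the unsorted library of the same number. With sorted positions that were also in the unsorted libraries of the screen left out, 5 members were still called by Fisher's exact test.

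The positions give the exon to which the tag would be spliced, and from this the part of the protein that would be fused. The lists hold no transcript sequence and do not say which of the 3 cassettes had landed, so these are predicted products. All sense insertions at the 6 genes in the 12 libraries matched exons of 1 reference transcript per gene in GENCODE vM21, with 7 at Crtc1, 22 at Crtc2, 77 at Crtc3, 57 at Mrtfa, 170 at Mrtfb and 17 at Myocd.

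For the CRTCs, a tag joined at exon 2 would replace the first 42 of 630 residues in Crtc1, 51 of 692 in Crtc2 and 44 of 619 in Crtc3. CRTCs bind CREB through the start of the protein, and the fusion would keep 92.6% to 93.3% of the protein. In all 3 genes exon 2 begins with a whole codon, so the same cassette frame would serve each of them. At Crtc2 all 18 sorted insertions, 6 and 12 by replicate, were assigned to exon 2 (95% Wilson interval 82.4% to 100%), against 2 of 4 in the background. They lay between bases -2375 and 2277 relative to the annotated gene start, 6 ahead of the gene and 12 inside it in intron sequence. The place of 1 of them was inside another coding gene. At Crtc3, 18 of 27 and 19 of 28 sorted insertions were assigned to exon 2, 67.3% in all (54.1% to 78.2%), against 15 of 21 in the background, 71.4% (50.04% to 86.2%). The sorted insertions at Crtc3 reached from base -25006 to base 96171 relative to the gene start, with 18 ahead of the gene, and 1 was inside another coding gene.

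Crtc3 also had sorted insertions well inside the gene. Exon 12, which would leave the last 197 residues (31.8% of the protein), took 2 and 5 insertions, and exons 11 and 13 took 1 each in replicate 2. The acceptor ahead of exon 12 is shown because it is the acceptor of most of the shorter predicted fusions, at chr7:80592869-80592898 (minus strand).
Crtc3 exon 12: tcatgtggtttgttccacAGatggtgacct
In all, 9 sorted insertions at Crtc3 would leave under 50% of the protein, 2.80 per 10000 (95% Wilson interval 1.48 to 5.33), against 3 in the background, 0.0294 per 10000 (0.00998 to 0.0863). For fusions with at least 90% of the protein the shares were 11.5 per 10000 (8.36 to 15.9) and 0.147 (0.0889 to 0.242). Both classes were thus more frequent in the sorted cells, and the sorted and background intervals did not overlap in either. Both classes lack the first 44 residues and keep the C-terminal end. The segment known to activate transcription lies in the C-terminal part, and its bounds were not mapped here. Whether it bears on these counts was not tested. The 2 sorted insertions at Crtc1 were assigned to exons 9 and 13, which would leave 53.7% and 20.6% of that protein, while its 5 background insertions were assigned to exons 2 and 3.

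**Figure D4:**
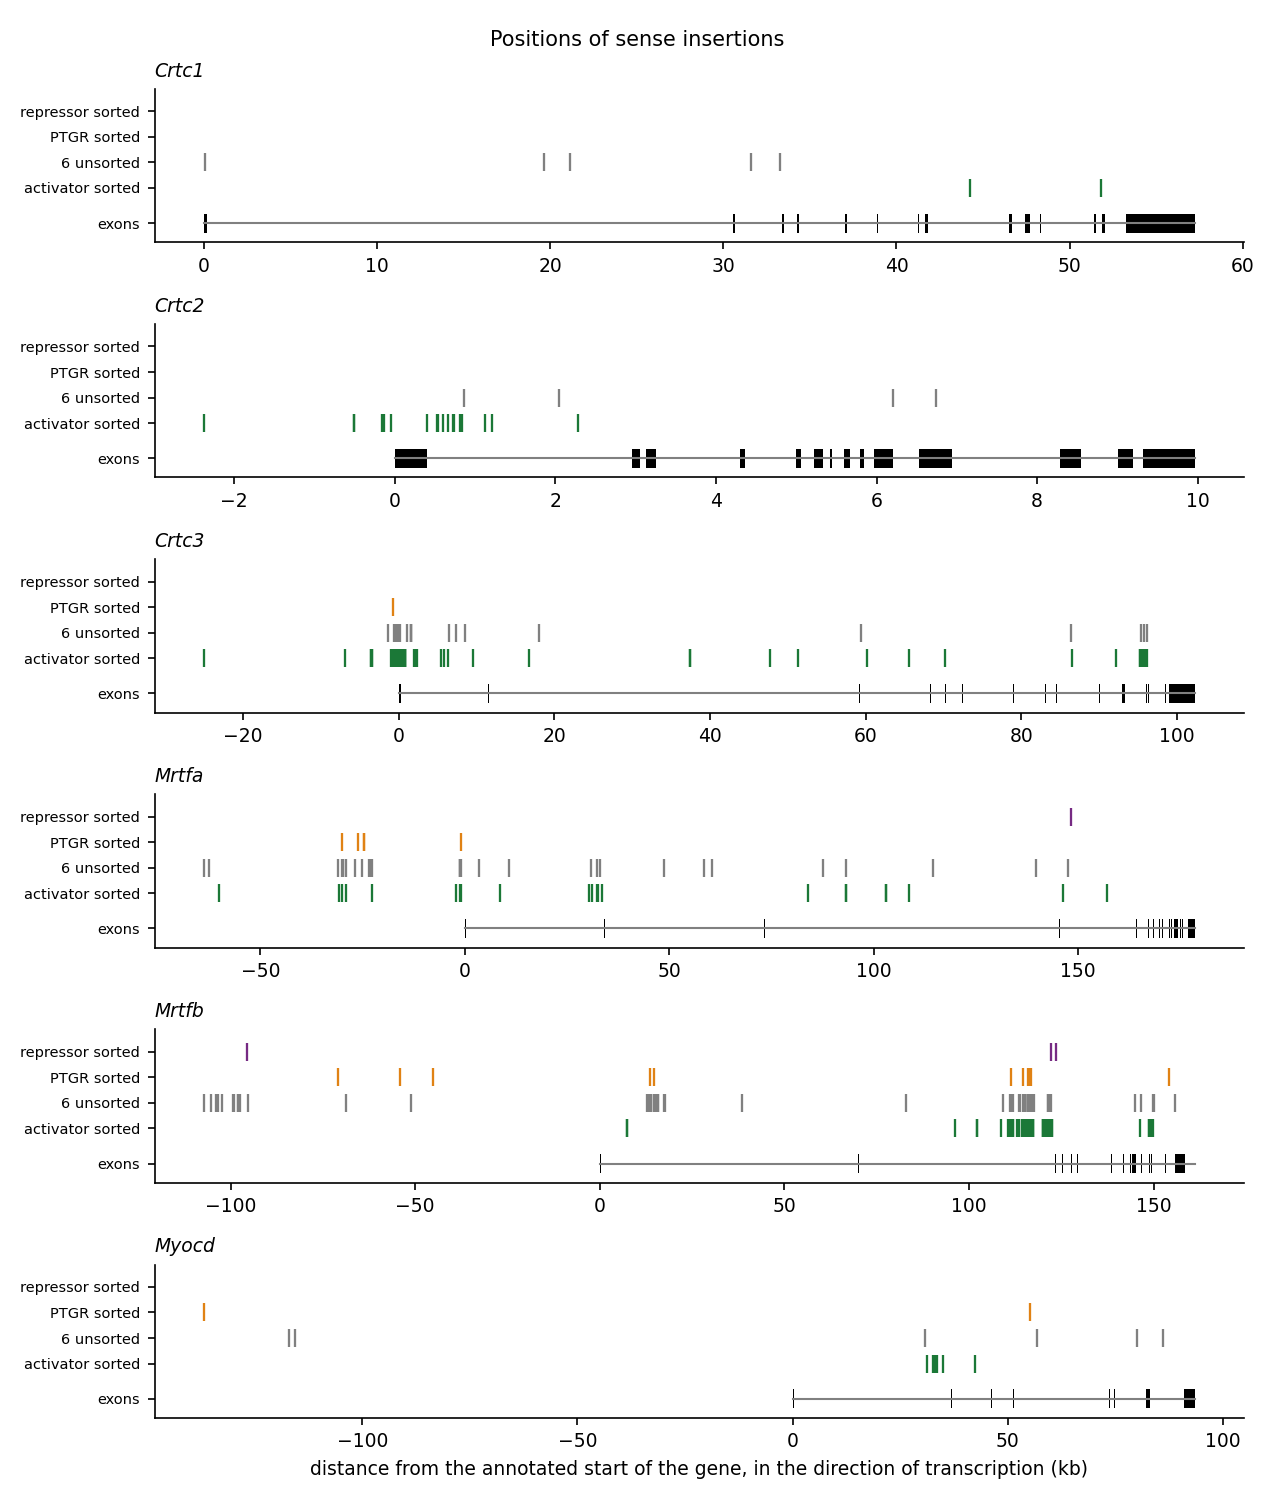
Positions of sense insertions along each gene as distance from its annotated start in the direction of transcription (horizontal axis, kb, with a scale of its own for each gene). Black boxes in the lowest row are exons of the reference transcript, and the rows above it are the 2 activator sorted (green), 6 unsorted (grey), 2 PTGR sorted (orange) and 2 repressor sorted (purple) libraries. Sorted insertions at Crtc2 sit around its start, and those at Mrtfb sit mostly just ahead of exon 4, with 0 in the group of background positions that lies upstream of the gene.

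The CRTC genes share another feature of their acceptors. Intron 3 of all 3 genes begins with AT and ends with AC, where 78 of the 82 introns in the 6 reference transcripts run from GT to AG and 1 from GC to AG. Over all 223282 introns of protein-coding transcripts in the same annotation, 197 (0.0882%) run from AT to AC. Such ends are known from introns removed by the minor spliceosome. The 3 exon 4 acceptors are shown, with the last 2 intron bases in capitals, because the final AC sets them apart from the acceptors above.
Crtc1 exon 4: ggttcccttaactcattcACgctgacagct
Crtc2 exon 4: ccttaactatagttatctACattgacagtt
Crtc3 exon 4: tcctttattaaaatttctACtttgatggga
They lie at chr8:70405311-70405340 for Crtc1 (minus strand), chr3:90258445-90258474 for Crtc2 (plus strand) and chr7:80620574-80620603 for Crtc3 (minus strand). The intron is 757, 1053 and 9036 bases long. Exon 4 was the assigned acceptor of 2 of the 55 sorted and 1 of the 21 background insertions at Crtc3, and of 0 at Crtc1 and Crtc2. These are too few to compare with other exons.

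At Mrtfb most sorted insertions were ahead of 1 acceptor. Exon 4 took 29 of 31 and 44 of 53 sorted insertions, 86.9% in all (95% Wilson interval 78.1% to 92.5%), against 31 of 70 in the background, 44.3% (33.2% to 55.9%). By library the share was 93.5% and 83.02% in the sorted replicates and from 0% to 66.7% in the 6 unsorted ones. Both sorted values were above all unsorted ones, a difference of 45.9 percentage points (88.3% ± 7.45, SD, n = 2, against 42.4% ± 22.4, n = 6). A two-sided exact permutation test over libraries gave p = 0.0714, the smallest these numbers allow, and exon 4 was chosen for the test after its values were seen. A tag at exon 4 would replace 52 of 1091 residues and keep 95.2% of the protein.

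Exons 2 and 3 of Mrtfb had smaller shares in the sorted cells, and the annotated start codon lies in exon 3. Exon 3 took 20 of 70 background insertions at Mrtfb and 0 of 84 sorted ones (Wilson interval 0% to 4.37%), and exon 2 took 13 of 70 and 2 of 84. Their windows are at chr16:13265059-13265088 and chr16:13326362-13326391 (plus strand).
Mrtfb exon 2: ttctactttctttttttcAGgttcataatt
Mrtfb exon 3: tttgtcactttcttcaacAGgctgcgtaaa
From either acceptor, the untranslated bases read in the frame of the start codon (97 from exon 2 and 36 from exon 3) hold a stop codon ahead of it in the reference transcript. Upstream of the annotated gene start, as far as base -107146, lay 13 of the 70 background insertions and 0 of the 84 sorted ones.

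**Figure D5:**
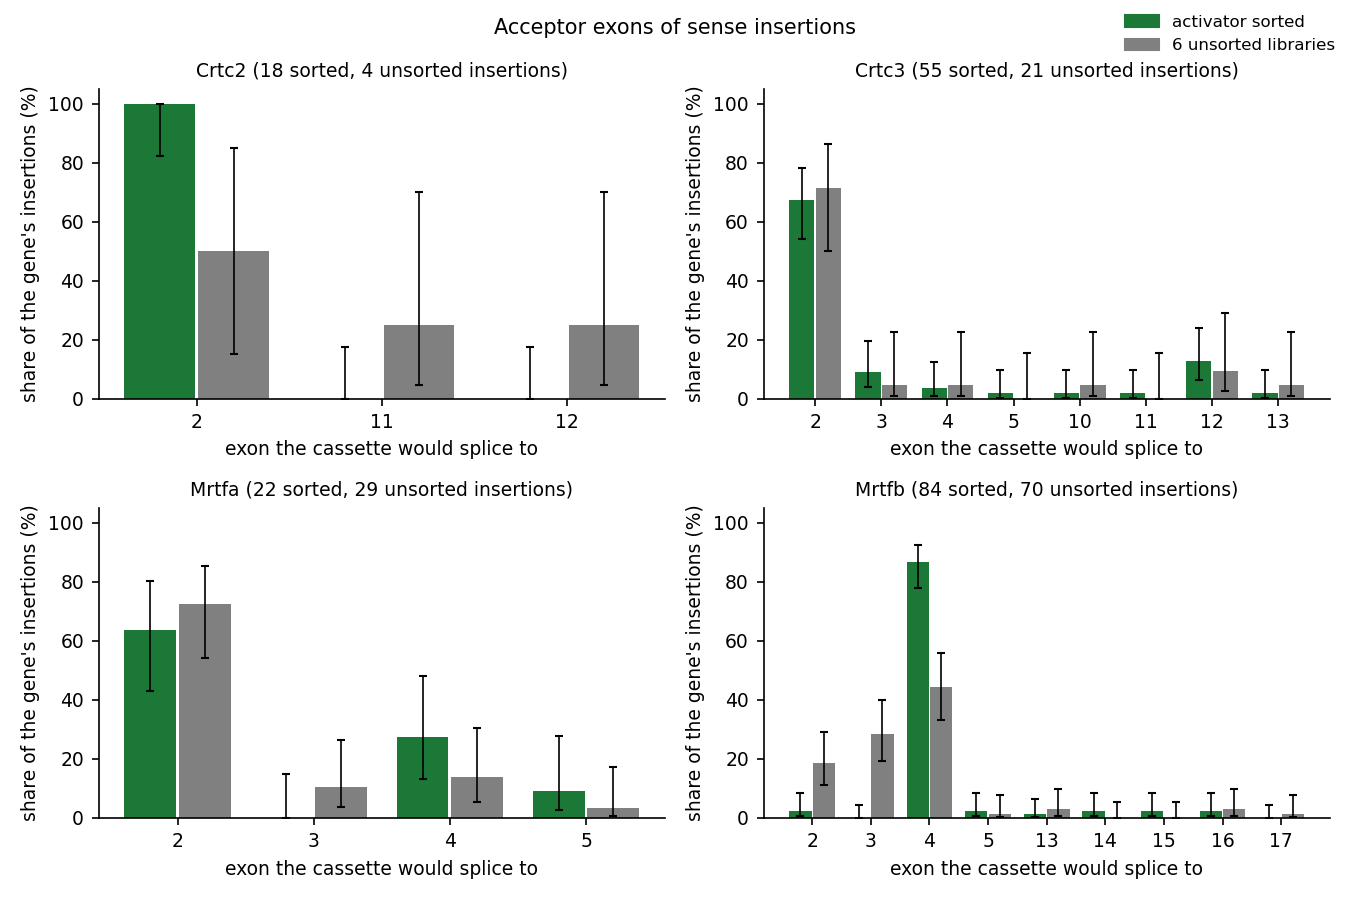
Share of a gene's sense insertions (vertical axis, %) assigned to each exon (horizontal axis; exons with no insertion in either set are left out) in the 2 activator sorted libraries (green) and the 6 unsorted libraries (grey), with 95% Wilson intervals, for Crtc2, Crtc3, Mrtfa and Mrtfb. At Mrtfb exon 4 holds 44.3% of unsorted and 86.9% of sorted insertions and exon 3 holds 28.6% and 0%, while at Crtc3 exon 2 holds 71.4% and 67.3%.

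At Mrtfa the sorted and background shares of the main acceptor had overlapping intervals. Exon 2 took 5 of 10 and 9 of 12 sorted insertions, 63.6% in all (95% Wilson interval 43.0% to 80.3%), and 21 of 29 background insertions, 72.4% (54.3% to 85.3%). Exon 4, which holds the start codon of the reference transcript, took 4 and 2 sorted insertions by replicate and 4 in the background. Exon 5 took 2 sorted and 1 background insertion, and exon 3 took 0 and 3. In the reference transcript a stop codon also lies in frame between the start of exon 2 and the start codon, but not from exons 3 and 4. The exon 4 window, at chr15:81045345-81045374 (minus strand), is given beside that of exon 2.
Mrtfa exon 4: ctcttcttgccaccatgcAGtgctgcagtt
The sorted insertions reached from base -59999 to base 157161 relative to the annotated gene start, and the background ones from -63734 to 147451. The 8 at exons 4 and 5 would keep at least 99.7% of the protein, and the 14 at exon 2 are those with the stop codon ahead.

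At Myocd, 5 of 5 and 3 of 4 sorted insertions were assigned to exon 2 and the other to exon 3. All 9 lay between 31341 and 42408 bases after the annotated start. A tag at exon 2 would replace 19 of 935 residues. The 6 background insertions were more scattered, with 3 at exon 2 and 1 each at exons 6, 10 and 11, and 2 of them lay upstream of the gene.

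The strict RPEL pattern (RPxxxEL) was found at residues 33 and 77 of Mrtfa, 104 and 148 of Mrtfb and 115 of Myocd. Motifs that depart from this pattern were not searched for, so the matches need not cover the whole actin-binding region. Both matches lie downstream of the acceptor for all 22 sorted Mrtfa insertions and 77 of the 84 sorted Mrtfb insertions, and for 29 of 29 and 65 of 70 in the background. Without the acceptors that have a stop codon in frame ahead of the start codon, 8 of 22 sorted Mrtfa and 75 of 84 sorted Mrtfb insertions were left from which a fusion with both matches is predicted, against 8 of 29 and 32 of 70 in the background. All 9 sorted Myocd insertions would keep its single match, against 3 of 6 in the background. The other 7 Mrtfb insertions, 2 and 5 by replicate, were assigned to exons 13 to 16. They would leave between 198 and 349 of 1091 residues, without either match. How much of the segment that activates transcription is kept was not mapped. These 7 insertions amounted to 2.18 per 10000 (95% Wilson interval 1.06 to 4.50), against 0.0489 (0.0209 to 0.115) for the 5 background insertions of that class.

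Few partners of the 2 families had enough insertions for a test in the activator screen, and Elk1 was the one called by Fisher's test. CREB is encoded by Creb1, which had 0 sorted activator insertions against 33 in the background. Its relatives Crem, with 2 and 2 sorted insertions (log2 odds ratio 0.33 ± 0.74), and Atf1, with 0 and 2 against 174 in the background, were not called there. Of 9 listed CRTC partners and regulators (the CREB group, the SIK kinases and 3 calcineurin genes), 0 were called in the activator screen and 4 were tested, with a median log2 odds ratio of 1.23. The value for all genes tested was -0.14, and 4.64% of them were called. Genes with under 3 sorted insertions do not enter that median. In edgeR 0 of 7 tested were called, where 1.46% of all genes were. The median log2 fold change was -1.28 against -0.73 over all genes. Among the same 9, 1 of 3 tested was called in the repressor data (median 1.11, all genes -0.39), where 8.18% of all genes were. In the PTGR data it was 0 of 8 tested (median -0.04, all genes 0.14), where 0.666% of all genes were called. The gene called was Atf1, a DNA-binding partner of CRTCs. It had 120 and 73 insertions in the repressor sorted libraries against 174 in the whole background, a log2 odds ratio of 4.93 ± 0.15 with an adjusted p of 6.19e-173 by Fisher's exact test. A position found in both sorted libraries counts in each, and these libraries shared 18.2% and 26.0% of all their positions.

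Srf had 0 sorted insertions in all 3 screens, but also only 4 in the background, so nothing could be measured for it. Of 10 listed MRTF and myocardin partners and regulators, 1 of 3 tested was called in the activator screen (median log2 odds ratio -0.04, all genes -0.14). For the repressor cells it was 0 of 3 tested (median 0.58), and for the PTGR cells 0 of 6 (median 0.09). Over all genes tested, 4.64%, 8.18% and 0.666% were called in the activator, repressor and PTGR screens. In edgeR 1 of 6 tested was called in the activator screen, where 1.46% of all genes were. The one called by Fisher's test was Elk1, an ETS-family factor that competes with MRTFs for SRF. It had 12 and 28 insertions in the activator sorted libraries and 53 in the background, a log2 odds ratio of 4.59 ± 0.30 with an adjusted p of 7.49e-34 by Fisher's exact test.

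Over the 12 libraries the genes whose insertion shares followed each of the 5 members called most closely were other activator hits. Pearson correlation of log2(insertions per 10000 + 0.5) was taken against 9728 genes with at least 20 insertions, as a description over libraries that share a contrast. The 3 closest to Crtc3 were Kmt2b (r = 0.992), Tfe3 (0.986) and Aff3 (0.986). Bicra (0.990 and 0.981) and Fhl3 (0.990 and 0.980) led for both Crtc2 and Mrtfb, followed by 1810046K07Rik (0.989) and Maml3 (0.979). For Mrtfa they were Gm36210 (0.983), Tead2 (0.975) and Mamstr (0.973), the last of which encodes a protein related to myocardin. For Myocd they were Atxn7l3 (0.982), Sox7 (0.982) and Mllt3 (0.980). Each of these genes was itself called in the activator screen, with 5 (Maml3) to 55 (Tfe3) insertions in sorted replicate 1.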

How the data were processed

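The authors trimmed reads with Trim Galore 0.6.0, aligned them to mm10 with Bowtie2, removed duplicates and poorly mapped reads with SAMtools 1.9. Each insertion was then given the closest downstream exon (not a first exon) of GENCODE protein-coding transcripts. The deposited lists give, per library, the position, exon number and distance of each insertion, sense and reversed. The deposited screen tables give insertion counts summed over libraries, which were used as a check. They equalled the counts here for every member except Mrtfa in the PTGR sorted cells (5 here, 7 there), where repeated rows were counted once here. Their odds ratios and p-values were not used.

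Here distinct positions within 200 kb were counted per gene and library. The main test was a one-sided Fisher's exact test (SciPy 1.17.1) of 2 summed sorted against 6 summed unsorted libraries, for genes with at least 3 sorted insertions. edgeR 4.0.16 (quasi-likelihood, TMM, at least 10 insertions over 4 libraries) compared 2 with 2 libraries and, over 12, the screens. Benjamini-Hochberg adjustment ran over all genes tested. DESeq2 1.42.0 was an alternative. Both tests were checked on simulated data, in which the changed genes had more background insertions than Crtc1, Crtc2 and Myocd. That check does not cover counts as low as theirs. Exons, start codons and gene bounds came from GENCODE vM21 on GRCm38, since the authors' release was not used here, with the transcript that held most of the assigned exons (of equals, the one with the longest coding sequence), and sequence from the RefSeq copy of GRCm38.

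Named genes are the 6 members, the CREB group, Srf, listed partners that were called, and the 3 genes most correlated with each called member. The members and lists were chosen with earlier results of these data known. Per the methods, part of each drug-selected pool was kept unsorted and the rest was sorted. Sorted libraries 1 and 2 shared 4.96% and 19.5% (activator) and 18.2% and 6.76% (PTGR) of positions with the unsorted library of their number, against 2.25%, 1.46%, 0.342% and 1.79% with the other, so the numbers pair these libraries. In the repressor screen they did not separate (8.17% and 8.23% against 9.86% and 5.03%). The 2 repressor sorted libraries shared 4892 positions with each other, 18.2% and 26.0% of theirs. The activator pair shared 1.76% and 2.26%, and the PTGR pair 0.546% and 0.591%. The repressor sorted pair can thus not be taken as fully independent, and why was not tested. Deviations of same-numbered libraries correlated at 0.049 (activator), 0.015 (repressor) and 0.229 (PTGR). The fit without a block was kept as designed, and blocked values are given where a call changed. Alternatives covered the background, distance, minimum count, repeated and shared positions, normalization and single libraries.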

Additional observations from a re-analysis of the deposited data

Results flagged for a closer look

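The change on sorting differed between screens for 2 of the 5 members tested, in each of the 2 comparisons. Over all 12809 genes tested, 0.570% were called higher in the activator than in the repressor screen. Against the PTGR screen 0.586% were called higher. In edgeR's model over 12 libraries, the adjusted p of the difference between the activator and the repressor screen was 2.02e-07 for Crtc3 and 5.69e-08 for Mrtfb. Between the activator and the PTGR screen it was 1.49e-04 for Crtc3 and 1.45e-06 for Mrtfb. The call for Crtc3 against the PTGR screen did not hold without PTGR unsorted replicate 1. No member had a single unsorted library that stood apart from the other 5 by Dixon's test. The highest ratio of gap to range was 0.621, for Crtc3 in repressor unsorted replicate 2, just under the critical value.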

How the results depend on the processing

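Of the 132 recomputed member counts, 128 stayed within 1.5 times the main count, and no alternative called a member in the repressor or PTGR screen or for reversed insertions. With a maximum distance of 2 kb, 2 members (Crtc3 and Mrtfb) were called by Fisher's exact test in the activator screen instead of 5. With a minimum of 10 sorted insertions Myocd was not tested. Leaving out 1 library at a time kept 5 called by Fisher's test, and gave 3 to 5 by edgeR (3 without activator sorted replicate 2, and 4, all but Myocd, without sorted replicate 1 or unsorted replicate 2). With a replicate block, edgeR called 4 members in the activator screen, all but Myocd (log2 fold change 5.48, adjusted p 0.0543), and the replicate block changed no other call of a member. For the difference between the activator and PTGR screens, DESeq2 called 4 members (Crtc2, Crtc3, Mrtfa, Mrtfb) instead of 2, with library size alone edgeR also called Mrtfa, and leaving out 1 library gave 1 to 2 (1 without PTGR unsorted replicate 1). The cause of these changes was not tested, except that fewer insertions enter with a shorter distance or fewer libraries. Values near 0 changed sign. For Mrtfb in the repressor screen the log2 odds ratio was -0.044 with the background of the same screen, and edgeR's log2 fold change was -0.043 with library size alone and -0.035 without a filter on low counts. Leaving out 1 library, these 2 values ran from -0.61 to 0.94 and from -0.40 to 1.03. For Mrtfa in the PTGR screen the log2 odds ratio was -0.82 with a maximum distance of 50 kb and edgeR's value -0.14 with a replicate block, and leaving out 1 library they ran from -0.79 to 1.27 and from -0.90 to 1.05. For Mrtfb in the PTGR screen the log2 odds ratio without 1 library ran from -0.0038 to 1.11. Counts over all genes moved more: with 2 kb, 81, 96 and 26 genes were called by Fisher's test in the activator, repressor and PTGR screens instead of 132, 192 and 62. For edgeR in the repressor screen the count was 519 with library size alone, 74 without a filter and 102 with 50 kb instead of 287, and in the PTGR screen 51 with a replicate block instead of 28. Depth limits Crtc1, Srf and the members' values in the repressor sorted cells.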
